A study of Mus musculus with 18 samples.

Results

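The signalling machinery that chemokine receptors share was followed in CD8 T cells through 10 genes, namely 4 G protein subunit genes (Gnai2, Gnai3, Gna13 and Gnb1) and 6 regulators of G protein signalling (Rgs1, Rgs2, Rgs3, Rgs10, Rgs14 and Rgs19). They were chosen by name, with earlier results of these data known, and all 10 were found among the 46983 genes of the table. RNA was sequenced in 18 libraries of mouse cells in 4 groups. Memory-phenotype cells (high surface CD44) of mice with the genotype Dock2-Hsd/Hsd (Dock2-/-) gave 5 libraries, and naive cells (low CD44) of that genotype gave 5. Memory-phenotype cells of wild-type mice gave 4 libraries, and their naive cells gave 4. C57BL/6J stands in the strain field throughout, but the Dock2-deficient libraries are described as C57L6NHsd, so that substrain and genotype cannot be told apart. No treatment was given, and the age of the mice and the tissue were not stated. Nothing in the labels says that replicates came from separate mice. The p-values therefore cover the spread among these libraries only, and part of it may be technical.

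Chemokine receptors are coupled to heterotrimeric G proteins of the Gi class. A ligand makes the receptor load the G alpha subunit with GTP, upon which G alpha and the G beta-gamma pair part and act on their effectors. RGS proteins speed up GTP hydrolysis on G alpha and thereby end the signal. Dock2 acts further down the same route: it is an exchange factor of blood cells that activates Rac and so links chemokine receptors to actin and movement.

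The depth was 2215987 to 8257768 expected reads per library, of which the ribosomal RNA gene Rn18s-rs5 took 37.0% to 69.4%. Values below are expected counts scaled between libraries by the authors, called normalised counts. Dock2 RNA was present in both genotypes. Its mean was 184 in Dock2-deficient memory cells and 243 in Dock2-deficient naive cells, against 537 in wild-type memory cells and 388 in wild-type naive cells (limma adjusted p = 0.121 in memory and 0.841 in naive cells). Cd44 averaged 194 in Dock2-deficient and 193 in wild-type memory libraries, against 5.99 and 6.61 in the naive libraries of the same genotypes. All 6 CD8 T cell markers were detected in every group, and those of platelets (sum at most 2.49) and myeloid cells (at most 11.5) were at or near 0. The 7 B cell markers summed to between 23.1 and 58.7, and the 5 erythroid markers reached 332.9 in 1 Dock2-deficient naive library. Trdc, a gamma delta T cell gene, averaged 10.4 and 32.8 in Dock2-deficient memory and naive cells, against 14.6 and 3.98 in wild-type memory and naive cells, and its part in the results was not tested. The other gamma delta markers listed, Sox13, Blk and Zbtb16, reached at most 2.20, 0.91 and 1.66 in any library. The 4 NK cell markers summed to between 65.5 and 86.8 in Dock2-deficient memory libraries, against 4.55 to 63.9 in Dock2-deficient naive ones, and to between 75.2 and 105 in wild-type memory libraries, against 5.59 to 15.4 in wild-type naive ones. Most of that was Eomes, which memory CD8 T cells also express (mean 81.6 in wild-type memory and 10.8 in wild-type naive cells). Ncr1, Tyrobp and Klrb1f averaged at most 4.80 in any group and were at 0 in wild-type naive cells, and their part in the memory comparisons, that of Rgs3 included, was not tested. Library 4 of wild-type memory and library 5 of Dock2-deficient memory cells lay apart from the rest on the principal components, and values without both are given beside several of the results. Xist was high in all 8 wild-type libraries and in Dock2-deficient library 1 of each cell state, and at or near 0 in the other 8, so that the genotype comparisons also set mostly male against female libraries. In a fit with sex as a covariate, sex is therefore set by Dock2-deficient library 1 of each state alone and cannot be told apart from other traits of those libraries.

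Every member passed the filter (a normalised count of at least 10 in at least 4 libraries), which left 9437 genes to test. Only 1 of the 10 members passed the test in any of the 5 comparisons. Rgs3, a GTPase-activating protein, rose in wild-type memory cells against wild-type naive cells. That is 1 of 10 members, where 1.88% of all genes tested were called higher and 2.52% were called in either direction (limma, Benjamini-Hochberg adjusted p under 0.05). At an unadjusted p under 0.05 there were 3 members, Gna13, Rgs1 and Rgs3, all higher, against 12.1% of all genes. No member passed in memory against naive cells of Dock2-deficient mice, where 2.82% of genes were called, and none had an unadjusted p under 0.05 against 13.4% of all genes. In Dock2-deficient against wild-type memory cells 0 of 10 members passed, against 0.053% of all genes. At an unadjusted p under 0.05 there were 4 members, Gnai2 and Gnai3 higher and Rgs1 and Rgs3 lower in Dock2-deficient cells, against 16.4% of all genes. In naive cells 0 of 10 passed, against 0.138% of all genes. The only member with an unadjusted p under 0.05 there was Rgs2, lower in Dock2-deficient cells, against 6.1% of all genes. The difference between the genotypes in their memory differences (the interaction) passed for 0 of 10 members, against 0.0318% of all genes, with Gnai3 and Rgs3 under an unadjusted 0.05 against 5.21% of all genes. In these bulk samples, fewer cells that carry a transcript and less of it in each cell cannot be told apart.

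**Figure D1:**
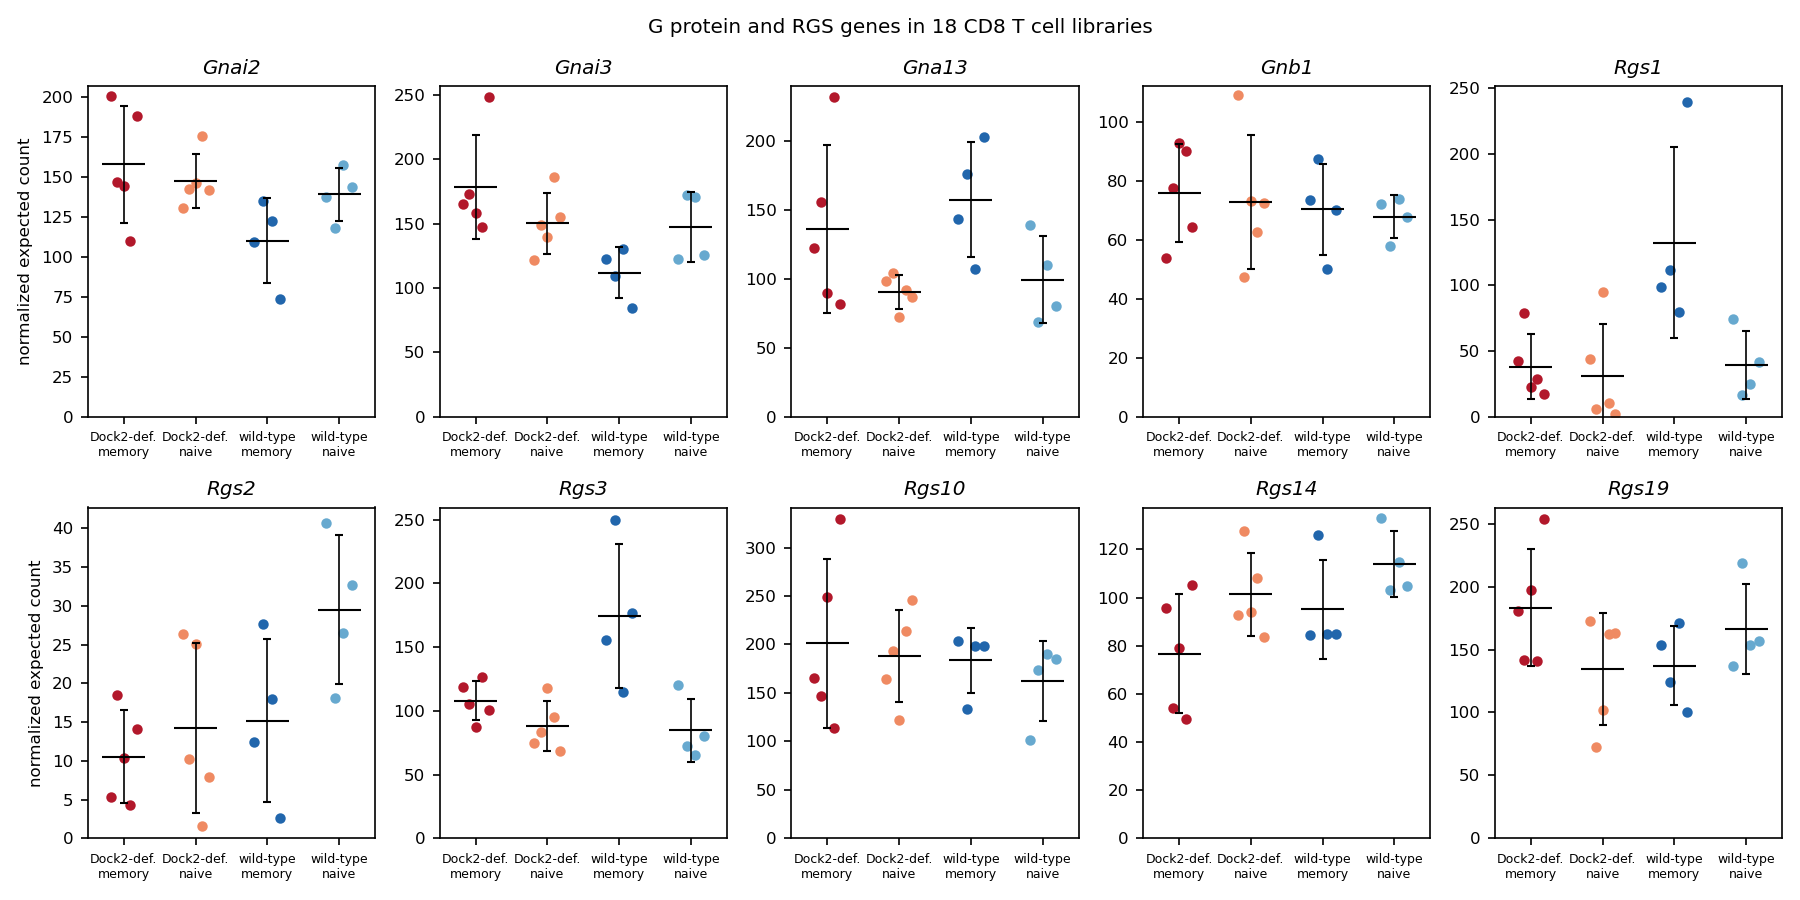
Normalised counts of the 10 members in each library (points), with Dock2-deficient memory, Dock2-deficient naive, wild-type memory and wild-type naive groups from left to right, a bar at each group mean and whiskers for the SD. Rgs2 is the lowest member in each group, and Rgs3 is highest in wild-type memory cells, where its mean was 174.

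Among the G alpha subunits, Gnai2 and Gnai3 encode the inhibitory alpha subunits through which chemokine receptors of lymphocytes act, Gnai2 being the one that T cell migration depends on most in mice. Gnai2 (chr9:107614125-107635367, minus strand, mm10) had 200.5, 147, 144, 109.8 and 188 normalised counts in Dock2-deficient memory libraries 1 to 5, against 109.4, 135, 122 and 73.4 in the 4 wild-type memory libraries. Its naive values were 131, 143, 146, 176 and 142 in Dock2-deficient libraries, against 138, 118, 158 and 144 in wild-type libraries. The naive groups overlapped throughout. In memory cells 4 of the 5 Dock2-deficient libraries lay above every wild-type one, and Dock2-deficient library 4 lay among them. The log2 fold change of Dock2-deficient against wild-type memory cells was 0.52 ± 0.21 (SE, adjusted p = 0.267, limma), and it was 0.08 ± 0.21 in naive cells.

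Gnai3 (chr3:108107280-108146146, minus strand) showed a wider gap of the same sign. It had 165, 173, 158, 147 and 249 normalised counts in Dock2-deficient memory libraries, against 123, 109.6, 130.2 and 84.8 in wild-type memory libraries. These groups did not overlap, which held for 2.06% of all genes in this direction. Its log2 fold change was 0.66 ± 0.20 (adjusted p = 0.228). The naive libraries had 122, 149, 139, 186 and 155 in Dock2-deficient mice, against 122, 172, 170.5 and 125 in wild-type mice, and overlapped (0.03 ± 0.20). Memory against naive cells differed by 0.23 ± 0.19 in Dock2-deficient mice and by -0.40 ± 0.21 in wild-type mice, and the interaction of 0.63 ± 0.29 did not pass (adjusted p = 0.819). Without the 2 libraries that lay apart these were 0.11, -0.27 and 0.38. The library farthest out in each memory group, wild-type library 4 (the lowest for both genes) and Dock2-deficient library 5 (the highest for Gnai3), is one of the pair that lay apart. Without both, the fold changes in memory cells were 0.41 for Gnai3 and 0.27 for Gnai2 (adjusted p = 0.806 and 0.828). Over 17 alternatives the adjusted p ranged between 0.104 and 0.834 for Gnai3 and between 0.107 and 0.828 for Gnai2.

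Gnai2 and Gnai3 are close paralogs, so their sum was taken too. The expected reads of Gnai3 were whole numbers in all 18 libraries, so no split of reads between these genes was seen. The sum was 366, 319.9, 302.3, 257 and 437 normalised counts in Dock2-deficient memory libraries, against 232, 244, 253 and 158 in wild-type memory libraries. Every Dock2-deficient memory library lay above every wild-type one, if narrowly (257 against 253), as for Gnai3 alone. Such a separation held for 2.06% of single genes in this direction, a share that was not taken over sums of genes. The sum contains Gnai3, which separated the memory groups by itself, while Gnai2 alone overlapped, so it is not a second observation. The lowest and highest memory sums, 158 and 437, were those of wild-type library 4 and Dock2-deficient library 5, the 2 that lay apart. Naive sums were 252 to 362 in Dock2-deficient and 260 to 328 in wild-type libraries. Per kilobase of exon, Gnai2 made up 43.2% ± 4.87 of the pair in Dock2-deficient memory cells, 46.0% ± 1.75 in Dock2-deficient naive cells, 45.6% ± 3.99 in wild-type memory cells and 45.2% ± 5.84 in wild-type naive cells (SD, n = 5, 5, 4 and 4). The ranges of all 4 groups overlapped in this share. Which gene made up more of the pair depends on the length used. Per kilobase of the longest transcript, Gnai2 averaged 63.3 and Gnai3 45.6 over the 18 libraries.

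The promoter of Gnai3 is shown as that of the member with the smallest p-value between the genotypes. It is the RefSeq window (build GRCm38.p6, chr3:108146103-108146402, minus strand), which runs 250 bases before and 50 bases after the start. Capitals mark matches to the core letters CCGGAAG of ETS factors, a family active in lymphocytes, on either strand.
Gnai3 promoter: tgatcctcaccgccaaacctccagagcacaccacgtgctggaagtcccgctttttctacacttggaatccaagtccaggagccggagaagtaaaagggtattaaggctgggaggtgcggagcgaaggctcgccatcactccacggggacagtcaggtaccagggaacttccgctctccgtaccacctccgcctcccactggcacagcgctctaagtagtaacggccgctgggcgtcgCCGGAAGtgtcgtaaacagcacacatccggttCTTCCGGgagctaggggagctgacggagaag
It held 2 such matches, against at least 1 in 8.86% of the 32851 promoters searched, and none to the letters of T-box factors (GGTGTGA), AP-1 (TGANTCA), Runx factors (TGTGGTT) or the GC box (GGGCGG). A match is a stretch of letters and not a site shown to be bound.

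Gna13 encodes an alpha subunit of another class, through which some receptors hold back lymphocyte migration. Gna13 (chr11:109362831-109401369, plus strand) had 123, 156, 89.4, 232 and 81.5 normalised counts in Dock2-deficient memory libraries, against 98.2, 104, 72.2, 92.2 and 86.6 in Dock2-deficient naive libraries. Wild-type memory libraries had 144, 176, 107 and 203, against 139, 68.7, 109.9 and 80.2 in wild-type naive libraries. Memory means were higher in both genotypes, but the groups overlapped in both. Neither 0.49 ± 0.27 in Dock2-deficient mice (adjusted p = 0.456) nor 0.67 ± 0.30 in wild-type mice (adjusted p = 0.361), both log2 fold changes, passed the test. Exons of the antisense gene Gm11696 cover 2.35% of the Gna13 exon bases, and strand was not kept, but the mean of Gm11696 was 2.38 normalised counts.

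Gnb1, the gene of a G beta subunit that pairs with G gamma to signal beside G alpha, was the flattest member. Gnb1 (chr4:155491361-155559269, plus strand) averaged 75.8 ± 16.6 and 73.1 ± 22.7 normalised counts in Dock2-deficient memory and naive cells, against 70.4 ± 15.4 and 68.0 ± 7.23 in wild-type memory and naive cells (SD, n = 5, 5, 4 and 4). Its 18 values lay between 47.6 and 109.2. The 4 group means on the log2 scale spanned 0.13, the smallest span of the 10 members, and its fold changes were between 0.03 and 0.10 in the 4 comparisons of a pair of groups (0.023 to 0.16 without both libraries that lay apart).

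Of the regulators, Rgs3 is a GTPase-activating protein for Gi and Gq alpha subunits. The windows at 2 of its starts are shown because it was the only member that passed the test, and because its 17 annotated transcripts begin at different places while the table gives 1 value per gene. The windows are from RefSeq on GRCm38.p6, both on the plus strand, the first at chr4:62559597-62559896 and the second at chr4:62619422-62619721. Capitals mark GGGCGG on either strand.
Rgs3 first start: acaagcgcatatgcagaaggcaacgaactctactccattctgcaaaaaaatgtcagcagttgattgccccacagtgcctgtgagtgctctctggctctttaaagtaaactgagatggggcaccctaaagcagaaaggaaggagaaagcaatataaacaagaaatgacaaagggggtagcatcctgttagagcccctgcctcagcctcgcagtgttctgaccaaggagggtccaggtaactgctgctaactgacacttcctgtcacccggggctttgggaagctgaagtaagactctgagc
Rgs3 second start: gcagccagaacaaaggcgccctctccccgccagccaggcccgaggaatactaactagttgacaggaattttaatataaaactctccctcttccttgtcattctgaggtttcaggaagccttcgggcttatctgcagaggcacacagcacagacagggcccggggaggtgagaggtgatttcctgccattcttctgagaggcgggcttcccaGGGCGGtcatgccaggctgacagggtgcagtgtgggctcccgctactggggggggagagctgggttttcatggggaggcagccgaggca
The first window held no match to any of the motifs searched, and the second held 1 GC box, a motif present in 35.7% of all promoters. Which start was used cannot be read from values per gene.

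Rgs3 (chr4:62559847-62704001, plus strand) had 156, 249.99, 115 and 177 normalised counts in wild-type memory libraries 1 to 4, against 121, 72.3, 65.7 and 80.2 in wild-type naive libraries. The means were 174 ± 56.6 and 84.7 ± 24.7 (SD, n = 4 each), and the log2 fold change of 1.02 ± 0.25 passed (adjusted p = 0.0294). The groups still overlapped, with memory library 3 at 115 below naive library 1 at 121. The Dock2-deficient memory libraries had 119, 105, 87.7, 127 and 101, against 74.6, 83.6, 118, 95.4 and 68.7 in the naive libraries of that genotype. Those means, 108 ± 15.4 and 88.1 ± 19.6 (SD, n = 5 each), differed by 0.30 ± 0.23 (adjusted p = 0.607), and the groups overlapped. The gap between the memory groups of the 2 genotypes was -0.64 ± 0.24 (adjusted p = 0.257), against 0.07 ± 0.24 in naive cells. A difference between the genotypes in the memory effect was not shown, since the interaction of -0.71 ± 0.34 had an adjusted p of 0.819.

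The call on Rgs3 rested on few libraries. It held in 2 of the 8 fits that left out 1 wild-type library, those without memory library 3 (adjusted p = 0.0135) or without naive library 1 (0.0105). It was lost without memory library 1 (0.0548), 2 (0.126) or 4 (0.0738) and without naive library 2 (0.100), 3 (0.117) or 4 (0.0778). The fold change itself stayed between 0.83 and 1.20 in all 8. Without both libraries that lay apart it was 0.99 (adjusted p = 0.0756).

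**Figure D2:**
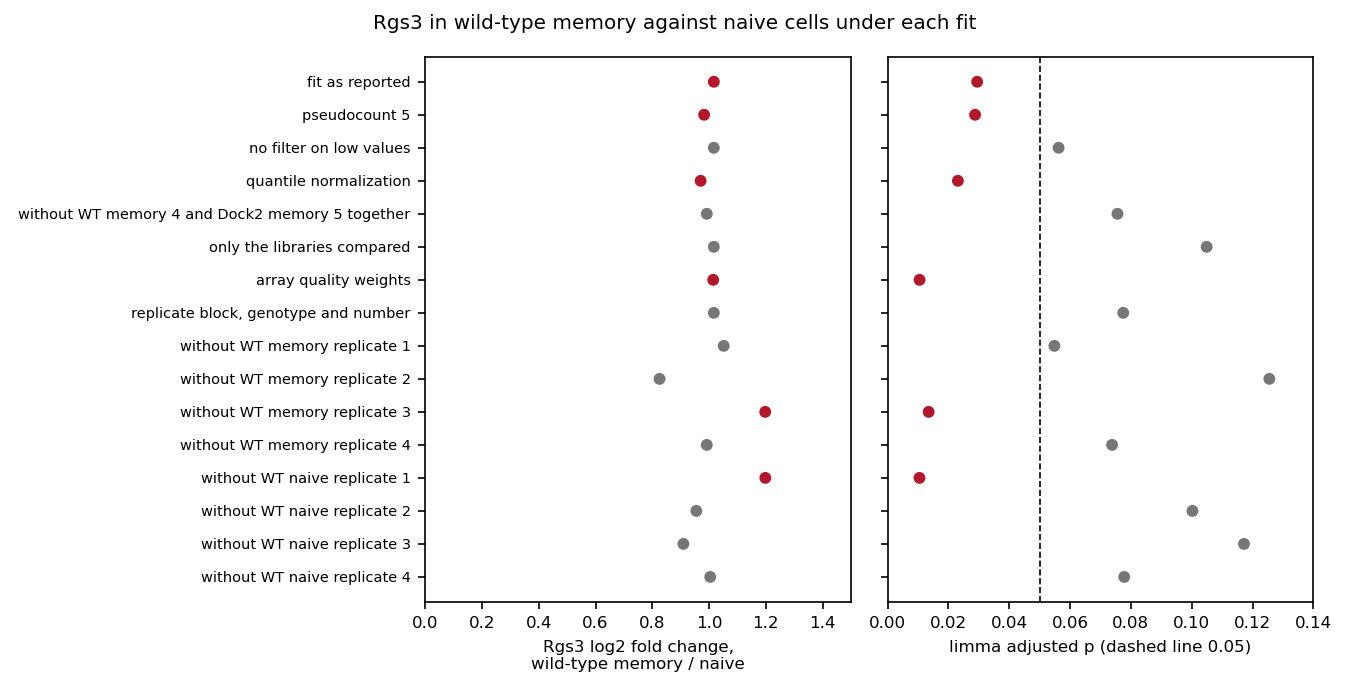
Log2 fold change of Rgs3 in wild-type memory against naive cells under each fit (left panel) and its adjusted p (right panel), with fits that passed in red. The estimate stays between 0.83 and 1.20, while the adjusted p lies on both sides of 0.05 and reaches 0.126 without memory library 2.

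Rgs1 is induced by activation in lymphocytes and damps their responses to chemokines. Rgs1 (chr1:144242296-144249242, minus strand) had 42.6, 79.0, 22.3, 28.9 and 17.7 normalised counts in Dock2-deficient memory libraries, against 98.6, 112, 79.9 and 239.5 in wild-type memory libraries. Each Dock2-deficient memory library lay below each wild-type one, a separation found in this direction for 2.38% of all genes. Its narrowest gap was small, 79.0 against 79.9. The naive libraries had 43.6, 6.11, 94.7, 10.4 and 1.99 in Dock2-deficient mice, against 74.3, 16.3, 25.2 and 41.8 in wild-type mice. In wild-type mice every memory library was also above every naive one, as for 4.99% of all genes, while the Dock2-deficient groups overlapped. The spread was wide: the naive Dock2-deficient mean was 31.4 ± 39.1 (SD, n = 5).

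With that spread no comparison of Rgs1 passed. The log2 fold change between genotypes was -1.84 ± 0.74 in memory cells (adjusted p = 0.265) and -1.12 ± 0.74 in naive cells (0.929). Between memory and naive cells it was 1.09 ± 0.69 in Dock2-deficient mice (0.533) and 1.81 ± 0.78 in wild-type mice (0.333). Without both libraries that lay apart, one of them wild-type memory library 4 with the highest Rgs1 of all, the genotype difference in memory cells was -1.295 (adjusted p = 0.806). With sex read from Xist in the fit, a term that rests on Dock2-deficient library 1 of each state, it was -0.92 (0.877) in memory cells and -0.20 in naive cells. Over 17 alternatives the adjusted p in memory cells ranged between 0.192 and 0.877. The Rgs1 values rest on 2 to 274 expected reads per library.

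Rgs2, which acts mainly on Gq alpha subunits and is also an early response gene, lies near Rgs1 on chromosome 1. Rgs2 (chr1:143999338-144004161, minus strand) had 26.4, 10.2, 25.1, 1.60 and 7.97 normalised counts in Dock2-deficient naive libraries, against 40.7, 18.1, 26.6 and 32.7 in wild-type naive libraries. In memory libraries it had 5.33, 18.5, 10.3, 4.26 and 14.2 in Dock2-deficient mice, against 12.4, 27.7, 18.05 and 2.62 in wild-type mice. Unlike Rgs1, its highest group was wild-type naive cells. All groups overlapped. Between the genotypes in naive cells the log2 fold change was -1.37 ± 0.65 (adjusted p = 0.815), and between memory and naive wild-type cells it was -1.20 ± 0.69 (0.538). The second value was -0.59 (0.912) without both libraries that lay apart and -0.73 with array quality weights, over adjusted p-values of 0.377 to 0.939 in 15 alternatives. Between the memory groups Rgs2 differed by -0.32 ± 0.65 (0.823), and by -1.07 without both. Rgs2 rests on 2 to 74 expected reads per library, the fewest of the members.

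Immediate early genes, which cell handling can raise, were read beside Rgs1 and Rgs2. The 13 genes of that list summed to 5668, 4779, 7615, 745 and 2002 normalised counts in Dock2-deficient memory libraries, against 7231, 6311, 4584 and 3948 in wild-type memory libraries. In naive libraries the sums were 4064, 3264, 4285, 954 and 1497 in Dock2-deficient mice, against 5357, 4689, 4178 and 4183 in wild-type mice. Dock2-deficient libraries 4 and 5 of both states thus had the 4 lowest sums. None of the 12 genes tested was called between genotypes, but all 12 had a negative log2 fold change in memory cells (median -0.74, against 0.01 over all genes) and in naive cells (median -0.61). Within the naive Dock2-deficient libraries, 4 and 5 were also the lowest for Rgs2 and among the 3 lowest for Rgs1. In memory cells the orders matched in part. Dock2-deficient memory libraries 4 and 5, with the lowest sums, were again among the 3 lowest of their group for Rgs1 (28.9 and 17.7). Library 4 also had the lowest Rgs2 of its group (4.26), but library 5 had the second-highest (14.2). Library 3, with the highest sum, had the second-lowest Rgs1 (22.3). Wild-type memory library 4, with the lowest sum of its group, had its lowest Rgs2 (2.62) but the highest Rgs1 (239.5). The part of these genes in the values of Rgs1 and Rgs2 was not tested.

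**Figure D3:**
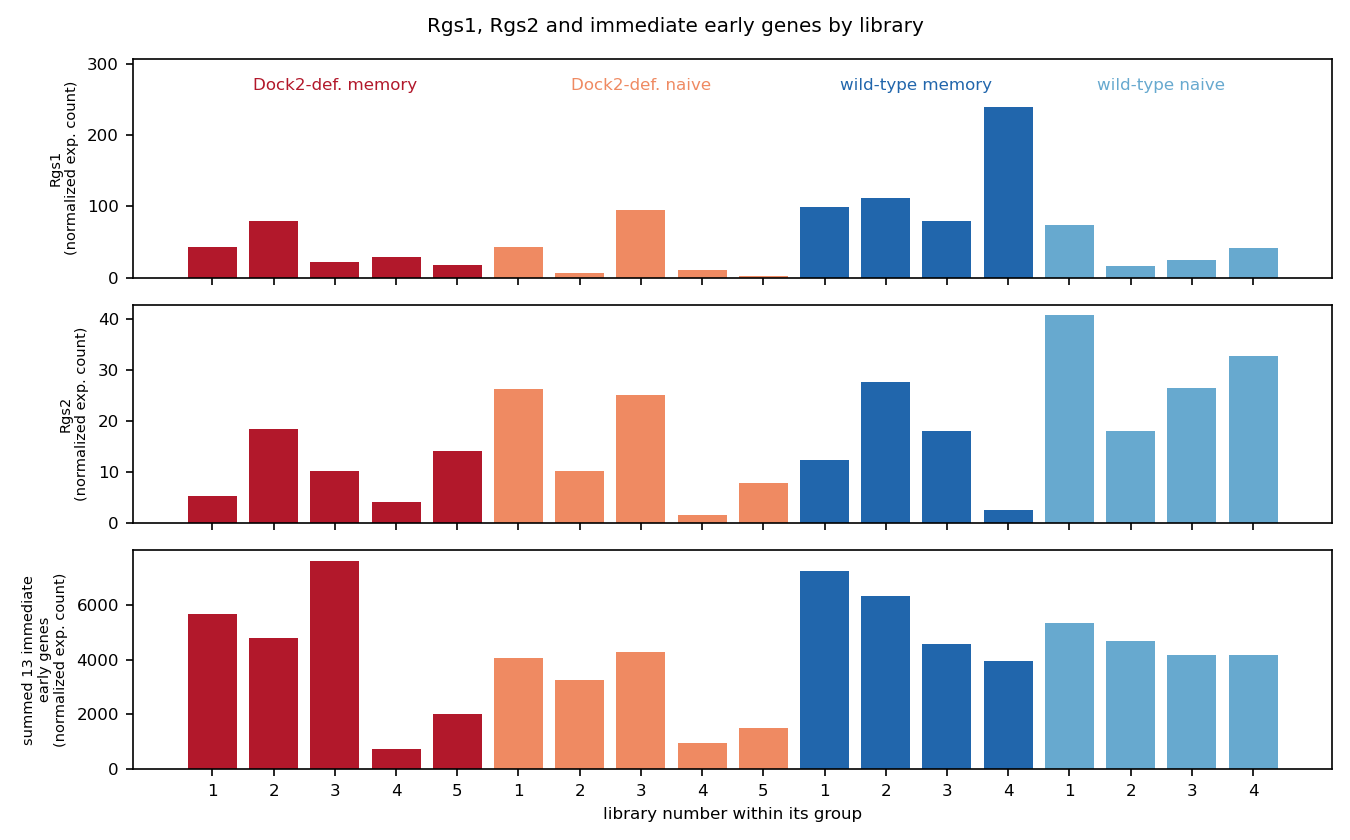
Bars give normalised counts of Rgs1, Rgs2 and the summed immediate early genes in each library, with the groups in the order Dock2-deficient memory, Dock2-deficient naive, wild-type memory and wild-type naive. Rgs1 peaks in wild-type memory library 4 at 239.5, where Rgs2 is 2.62, and the immediate early sum is lowest in Dock2-deficient memory library 4 at 745.

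Rgs10, Rgs14 and Rgs19 act on Gi alpha subunits. Rgs14 also binds the GDP-bound form of Gi alpha through a separate motif, and Rgs19 is also known as G alpha-interacting protein. Rgs10 (chr7:128373621-128418758, minus strand) averaged 201 ± 87.6 and 188 ± 47.4 normalised counts in Dock2-deficient memory and naive cells, against 184 ± 33.5 and 163 ± 41.4 in wild-type memory and naive cells (SD, n = 5, 5, 4 and 4). Its fold changes lay between 0.03 and 0.21 in the 4 comparisons of a pair of groups, and between -0.17 and 0.21 without both libraries that lay apart. Its range was widest in Dock2-deficient memory cells, with 114 at the lowest and 330 at the highest.

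Rgs14 (chr13:55369732-55384687, plus strand) had lower means in memory than in naive cells of both genotypes. It had 95.9, 54.3, 79.1, 49.4 and 105 normalised counts in Dock2-deficient memory libraries, against 92.7, 128, 94.2, 108 and 83.6 in Dock2-deficient naive libraries. The groups overlapped, with a log2 fold change of -0.44 ± 0.22 (adjusted p = 0.395). In wild-type mice it was -0.27 ± 0.25 (0.751), with means of 95.1 ± 20.6 in memory and 114 ± 13.8 in naive cells (SD, n = 4 each).

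Rgs19 (chr2:181688419-181693977, minus strand) had opposite signs in the 2 genotypes. It had 181, 142, 198, 141 and 254 normalised counts in Dock2-deficient memory libraries, against 173, 72.7, 102, 162 and 163 in the naive libraries of that genotype. Wild-type memory libraries had 153, 124, 171 and 100.5, against 137, 219, 154 and 157 in wild-type naive libraries. The fold changes of 0.48 ± 0.25 in Dock2-deficient mice (adjusted p = 0.414) and -0.28 ± 0.28 in wild-type mice (0.779) did not pass, and neither did their difference of 0.77 ± 0.37 (0.819). Without both libraries that lay apart these were 0.36, -0.14 and 0.50.

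**Figure D4:**
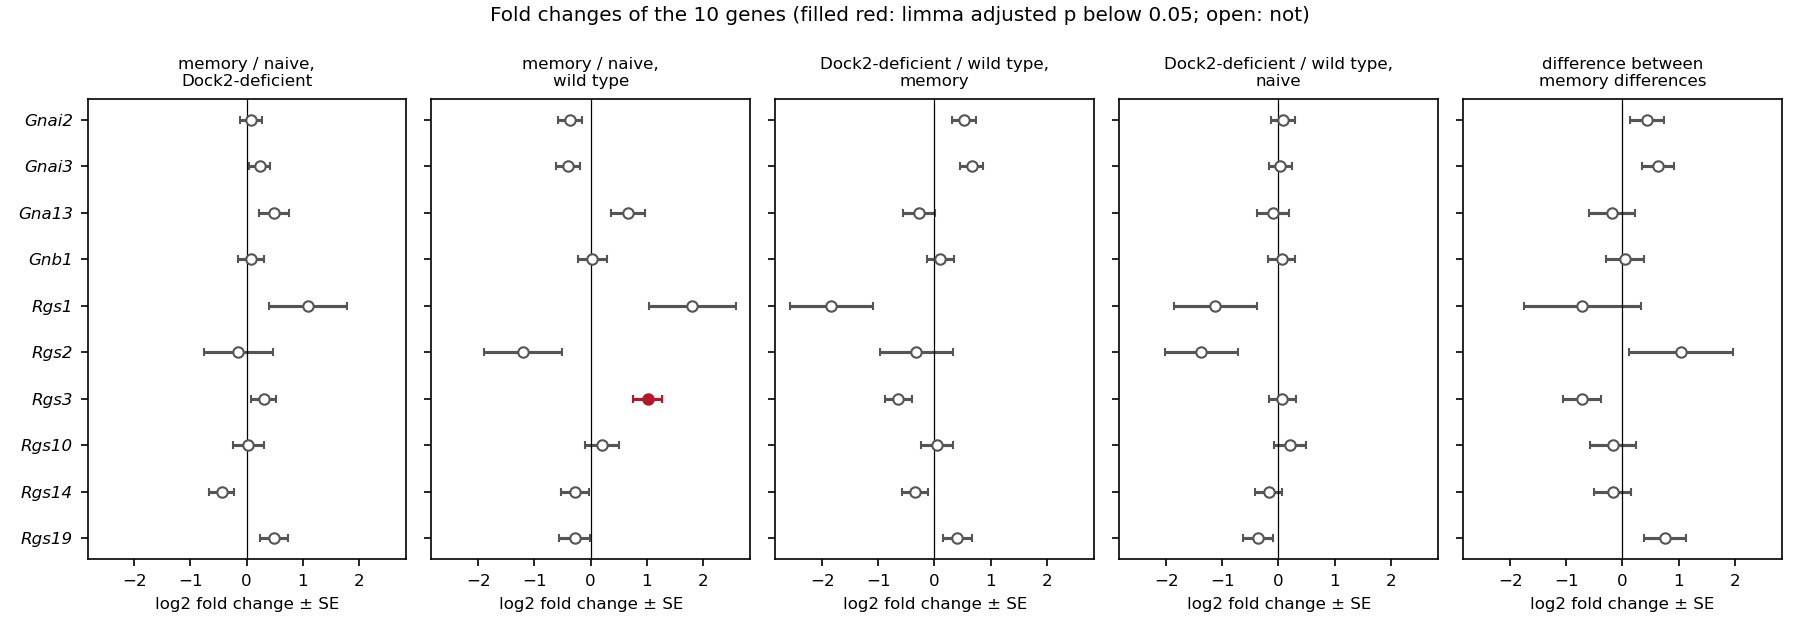
Log2 fold changes of the 10 members (points) with their standard errors (bars) in the 5 comparisons. Only Rgs3 in wild-type memory against naive cells, at 1.02, passed the test, and the bars of Rgs1 and Rgs2 are the longest.

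As a set the members did not stand in one direction. In memory against naive cells their median log2 fold change was 0.16 in Dock2-deficient mice, with 8 of 10 above 0, and -0.12 in wild-type mice, with 5 of 10 above 0, beside medians of -0.01 and -0.02 over all genes tested. Between genotypes it was -0.11 in memory cells and -0.03 in naive cells, with 5 of 10 above 0 in each. The span of the 4 group means was 2.93 for Rgs1, 1.52 for Rgs2, 1.02 for Rgs3 and 0.76 for Gna13 on the log2 scale, and 0.66 or less for the other 6.

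Per kilobase of exon, averaged over the 18 libraries, Rgs10 was the highest member with 108 normalised counts, followed by Rgs19 with 69.9, Gnai3 with 45.6, Gnai2 with 37.1, Rgs14 with 22.6, Gna13 with 18.7, Gnb1 with 16.9, Rgs3 with 10.4, Rgs1 with 8.28 and Rgs2 with 4.64. Rgs10, Rgs19, Gnai3 and Gnai2 each stood above the next member in 16 or 17 of the 18 libraries. The order of Gna13 and Gnb1 held in 9, and that of Rgs1 and Rgs2 in 10, and the order of these means turned between groups. Rgs1 and Rgs2 averaged 19.1 and 4.19 in wild-type memory cells, but 5.67 and 8.14 in wild-type naive cells. Gna13 and Gnb1 averaged 24.5 and 16.5 in wild-type memory cells, but 14.1 and 17.1 in Dock2-deficient naive cells. Divided by the longest transcript in place of all exons, Gnai2 with 63.3 lay above Gnai3 with 45.6, and Rgs3 with 23.8 above Gnb1 and Gna13, so the order of those 5 depends on the transcripts used.

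**Figure D5:**
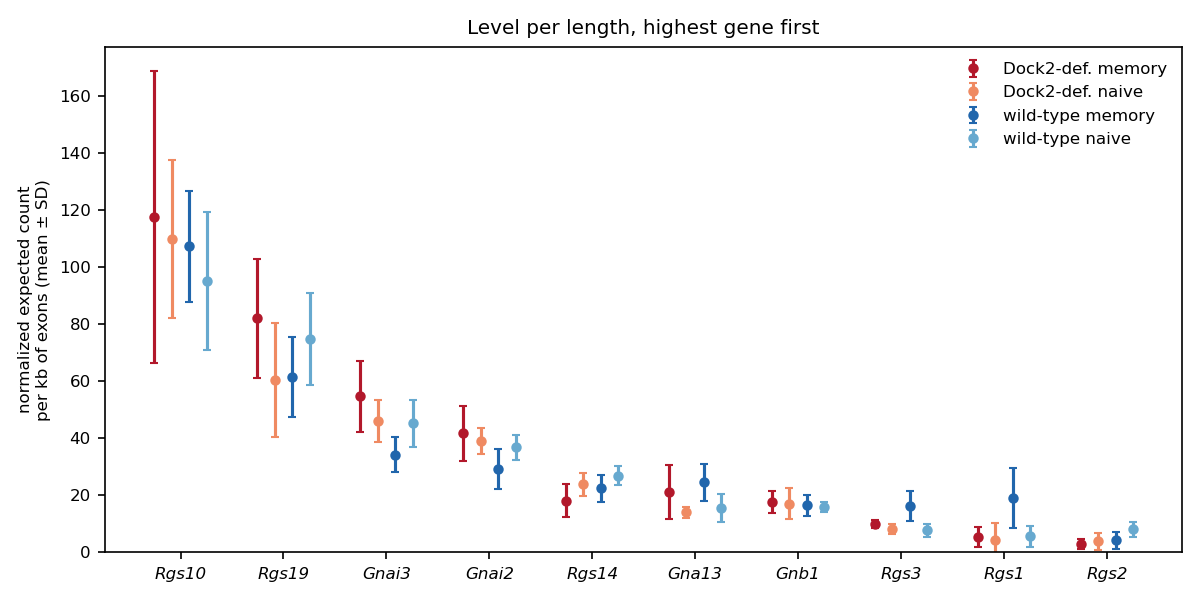
Normalised counts per kilobase of exon of the 10 members, with a point at each group mean and bars for the SD, in the order Dock2-deficient memory, Dock2-deficient naive, wild-type memory and wild-type naive. The members run between Rgs10, which averages 108, and Rgs2, which averages 4.64.

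Other parts of the pathway were read from lists of their genes. Neither the 6 of 12 other G alpha genes that were tested, nor the 2 of 4 other G beta genes, the 6 of 7 modulators such as Ric8, nor the 5 of 7 receptor kinases and arrestins held a gene that passed in any comparison. Of 13 other RGS genes 1 was tested, Rgs11, and it did not pass. Rgs13 and Rgs18, which lie near Rgs1 and Rgs2 on chromosome 1, were too low to be tested. Of 12 G gamma genes 4 were tested, and 1 was called in Dock2-deficient memory against naive cells, where 2.82% of all genes were called. That gene was Gng2, whose product pairs with G beta, and it rose in Dock2-deficient memory cells. It had 53.3, 45.7, 36.1, 51.1 and 40.7 normalised counts there, against 19.1, 18.3, 30.7, 27.3 and 10.95 in Dock2-deficient naive cells. The log2 fold change was 1.12 ± 0.30 (limma adjusted p = 0.0448). However, the call held in only 2 of 10 fits without 1 library, with an adjusted p of up to 0.131 without naive library 5. In wild-type mice the mean of Gng2 was also higher in memory than in naive cells (43.6 against 25.0). There the groups overlapped and the difference did not pass.

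Among 21 effector genes, 14 were tested and 2 were called. Both were called in wild-type and 1 in Dock2-deficient memory against naive cells, where 2.52% and 2.82% of all genes were called. Arhgef11, an exchange factor activated by Gna13, fell in memory cells of both genotypes. It had 1.78, 0, 3.44, 0 and 0 normalised counts in Dock2-deficient memory libraries, against 54.3, 17.7, 9.84, 13.6 and 15.9 in naive libraries of that genotype (log2 fold change -3.56 ± 0.62, adjusted p = 0.00129, called in 10 of 10 fits without 1 library). Wild-type memory libraries had 4.14, 0.63, 4.63 and 0, against 21.0, 12.7, 18.2 and 20.3 in wild-type naive libraries (-2.84 ± 0.69, adjusted p = 0.0272). In wild-type mice the call held in 2 of 8 such fits and reached 0.0930 without memory library 4. Plcb3, a phospholipase C acted on by Gq alpha and G beta-gamma, rose in wild-type memory cells, with 18.2, 40.3, 23.2 and 10.5 against 0, 9.04, 1.397 and 1.13 in wild-type naive cells. Plcb3 was called there (limma adjusted p = 0.0103), but not without memory library 2 (0.0563) or with only the libraries compared (0.0680). Its log2 fold change was 3.02 ± 0.65 in wild-type cells, whereas it was -0.09 ± 0.59 in Dock2-deficient cells. The difference between these did not pass (adjusted p = 0.819).

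The receptors that feed these G proteins included several that passed. All 14 listed Gi-coupled receptors of T cells were tested. In memory against naive cells 2.82% of all genes were called in Dock2-deficient mice and 2.52% in wild-type mice. Among the receptors, 6 rose and 2 fell in Dock2-deficient mice, and 5 rose and 2 fell in wild-type mice. Of these, the calls on Cxcr6 (lower) and Gpr183 (higher) in Dock2-deficient mice each held in 4 of 10 fits without 1 library, and that on Gpr183 in wild-type mice in 0 of 8 (adjusted p = 0.0451, up to 0.156 without naive library 3). S1pr5 in wild-type mice held in 8 of 8 such fits but lost its call without the 2 libraries that lay apart, with only the libraries compared and with the replicate block (adjusted p up to 0.0680). Cxcr5, a receptor for homing to B cell follicles, rose by 2.89 ± 0.41 in Dock2-deficient mice and by 4.66 ± 0.46 in wild-type mice on the log2 scale (adjusted p = 0.000128 and 1.00e-06). Ccr9, a gut-homing receptor, fell, with log2 fold changes of -5.43 ± 0.42 in Dock2-deficient mice and -7.04 ± 0.46 in wild-type mice (1.87e-08 and 2.66e-09). Between the genotypes 0.053% of all genes were called in memory cells and 0.138% in naive cells. No receptor passed in memory cells, and 1 of 14, Cxcr3, was higher in Dock2-deficient naive cells (log2 fold change 3.37 ± 0.45, limma adjusted p = 0.000646). That call was lost with only the libraries compared and with sex read from Xist in the fit, where the adjusted p reached up to 0.253. Sex in that fit rests on Dock2-deficient library 1 of each state alone.

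For the 3 members with the widest span, the genes whose 4 group means lay closest to theirs were sought among 3605 genes with a mean of at least 50. Likeness was the root mean square difference of the 4 centred group means on the log2 scale, and carries no test. Closest to Rgs1 were Fosb at 0.22, a member of AP-1 that is also on the immediate early list, Cd160 at 0.40 and Zfhx2 at 0.41. Closest to Rgs2 were Abcc5 at 0.17, Man2a2 at 0.20 and Acad9 at 0.21. Closest to Rgs3 were Hmgb2 at 0.037, Unc119b at 0.048 and Prkx at 0.063. Hmgb2, a chromatin protein that is high in dividing cells, averaged 60.1 and 53.9 normalised counts in Dock2-deficient memory and naive cells, against 88.4 and 43.5 in wild-type memory and naive cells.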

How the data were processed

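Per the labels' protocols, a Qiagen RNAeasy kit served for extraction and Smartseq2, a method without strand information, for the libraries. The submitters' processing notes name RSEM, FastQC, bcl2fastq and the build mm10. Tool versions and the gene annotation are not given in the sources used here. In the deposited table is a normalized signal per gene, that is, RSEM expected counts scaled between libraries by the authors. Values lay on steps of 0.01 reads, scaled by 1 factor per library, and 59.5% to 69.3% of values above 0 were whole reads within 0.005, so count models were not used. Multiplying by that factor gave the expected reads. Rows were matched by symbol, and list genes under an older symbol (Ric8, Adrbk1, Adrbk2) by gene ID. Positions and lengths came from GENCODE M21 (mm10). Promoters came from RefSeq (GRCm38.p6), which matched 7 of the 10 members.

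Values were tested as log2(value + 1), a scale that understates changes of low genes, with limma 3.58.1 in R 4.3.3. All 18 libraries entered a single model with a mean for each group, fitted to the 9437 genes whose value reached 10 in 4 or more libraries (14 residual and 6.43 prior degrees of freedom, variance trend). Tests were two-sided, and p-values were adjusted over all genes tested. Memory comparisons of the 2 genotypes share no libraries, nor do genotype comparisons of the 2 states. The interaction uses all of them. The fit was tested on simulated data. Replicates of a group differed by more than sampling noise (chi-square per degree of freedom 5.03 to 194, Pearson correlation 0.926 to 0.969). The chi-square scaled each pair with Rn18s-rs5 included, so differing shares of that gene raise it. It was highest between Dock2-deficient memory libraries 4 and 5, where Rn18s-rs5 took 69.0% and 37.0%. It was lowest between wild-type memory libraries 1 and 3 (56.3% and 55.6%). The spread of the other genes alone was not measured by it. Python 3.11.15 with numpy 2.4.6, pandas 2.3.3 and matplotlib 3.10.9 prepared the tables and plots.

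The members and lists were chosen with earlier results of these data known. All members were named, list genes only where called or where a result turned on them, and the genes most like a member by the fixed rule given with them. Alternatives were a pseudocount of 5, no filter, quantile normalization, leaving out the 2 memory libraries that lay apart, only the libraries compared, array quality weights, a replicate block, sex as a covariate, each library left out in turn and the longest transcript.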

Additional observations from a re-analysis of the deposited data

Results flagged for a closer look

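Of 40 sets of values (10 members in 4 groups), 3 held a library that stood apart from the others of its group by Dixon's criterion, where chance gives about 1 in 20. Rgs10 was 133 in wild-type memory library 2, the lowest of a group whose others were 198 to 204. Rgs10 was 101 in wild-type naive library 1, the lowest of a group whose others were 174 to 190.1. Rgs14 was 126 in wild-type memory library 2, the highest of a group whose others were 84.6 to 85.1. No comparison of Rgs10 or Rgs14 passed the test, with or without these libraries. Their cause was not tested.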

How the results depend on the processing

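Of 910 fold changes of members recomputed under alternatives, 851 kept their direction and their side of the threshold, 10 kept their direction but lost the call (all of them Rgs3 in wild-type memory cells) and 49 changed sign. None that changed sign had passed the test.

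The call on Rgs3 left 0 members past the threshold with no filter (adjusted p = 0.0562), without wild-type memory 4 and Dock2-deficient memory 5 (0.0756), with only the libraries compared (0.105) or with the replicate block (0.0775), and 0 to 1 with a library left out. It held with pseudocount 5 (0.0288), quantile normalization (0.0231) and array weights (0.0105). Array weights called 450 genes in Dock2-deficient and 377 in wild-type memory against naive cells. Between genotypes in memory cells 12 genes were called with pseudocount 5, 10 with no filter, 3 with only the libraries compared, 40 with array weights, 0 with sex as a covariate (read from Xist) and 3 to 13 with a library left out. In naive cells 8 were called with only the libraries compared and 3 with sex as a covariate. The interaction called 0 with no filter, without the 2 libraries or with the replicate block, 5 with array weights and 0 to 2 with a library left out.

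Signs turned in these fold changes. In Dock2-deficient memory against naive cells, Rgs10 was -0.17 without the 2 libraries and -0.12 with array weights, and Rgs2 0.16 with array weights. In wild-type memory against naive cells Gnb1 was -0.023 with quantile normalization. Between genotypes in memory cells Gna13 was 0.017 without the 2 libraries, and Rgs10 was -0.11 without them, -0.036 with array weights, -0.11 with the replicate block and -0.12 with sex. In naive cells Gna13 was 0.0037 with array weights, and Gnai3 was -0.039 with the replicate block and -0.15 with sex. In the interaction Gna13 was 0.11 without the 2 libraries and Rgs1 0.14 with array weights. With a library left out, the ranges across 0 were -0.019 to 0.20 (Gnai2), -0.68 to 0.17 (Rgs2), -0.063 to 0.23 (Gnb1) and -0.17 to 0.21 (Rgs10) in Dock2-deficient memory against naive cells. They were -0.082 to 0.18 (Gnb1) and -0.014 to 0.34 (Rgs10) in wild-type memory against naive cells. Between genotypes they were -0.16 to 0.22 (Rgs10), -0.93 to 0.067 (Rgs2) and -0.046 to 0.22 (Gnb1) in memory cells. In naive cells they were -0.099 to 0.20 (Gnb1), -0.042 to 0.25 (Rgs3), -0.052 to 0.11 (Gnai3), -0.25 to 0.087 (Gna13) and -0.00028 to 0.36 (Rgs10). In the interaction they were -0.10 to 0.20 (Gnb1) and -0.37 to 0.046 (Rgs10). The causes were not tested.

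Whether the replicate numbers pair the libraries could not be settled. Correlations of deviations between same-numbered libraries were -0.25 to 0.30 in Dock2-deficient mice, -0.02 to 0.13 in wild-type mice, and 0.01 to 0.11 in memory and -0.17 to 0.16 in naive cells across genotypes. Only 1 of 5, 2 of 4, 1 of 4 and 1 of 4 libraries correlated best with their own number. Such correlations can miss a pairing. Dock2-deficient library 1 had high Xist in both states (2593 in memory and 2217 in naive cells), where the others of that genotype were at or near 0. Dock2-deficient libraries 4 and 5 of both states had the lowest immediate early sums. The values of Rgs1 rest on 2 to 274 and those of Rgs2 on 2 to 74 expected reads per library.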
